A study of Mus musculus with 2 samples.

Results

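The G1 cyclins, cyclin-dependent kinase (CDK) inhibitors and Myc of the mouse cornea were followed in every cell cluster of a single-cell RNA-seq study of corneal wounding. The 10 members, *Ccnd1*, *Ccnd2*, *Ccnd3*, *Cdk4*, *Cdk6*, *Cdkn1a*, *Cdkn1b*, *Cdkn1c*, *Cdkn2b* and *Myc*, were taken by gene symbol from the 20198 genes of the deposited count table, and all 10 were found. One library held corneal cells of 4 unwounded mice (UW), and the other held cells of 4 mice taken 24 h after the central corneal epithelium was scraped off (W). The mice were young adult males, and their strain was not given in the sources used here. No genotype was named for either group. Wounding was done under pentobarbital sodium with procaine hydrochloride on the eye, and the wound received ofloxacin, an antibiotic. Each library pooled its mice, and no value of a single animal was computed here. The paper itself assigned the pooled cells to single mice with the Souporcell algorithm. The tables held 16450 UW and 12417 W cells with a median of 22014 and 20290 unique molecular identifiers (UMIs, 1 per captured transcript) per cell.

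The D-type cyclins bind CDK4 and CDK6, and the complexes phosphorylate the retinoblastoma protein, which releases E2F factors and lets a cell pass from G1 into S phase. Growth factors and matrix contact induce the D cyclins, and Myc, a transcription factor of growth and ribosome production, acts in the same window. The Cip/Kip inhibitors p21 (*Cdkn1a*), p27 (*Cdkn1b*) and p57 (*Cdkn1c*) bind cyclin–CDK complexes, whereas p15 (*Cdkn2b*), of the Ink4 family, binds CDK4 and CDK6 alone. In the cornea, the cells that divide lie in the limbus and the basal layer, and their daughters move up through suprabasal and superficial layers and leave the cycle.

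The deposited table sorted cells into 17 clusters without names, and 12 of them held at least 50 cells in each library. Of these, 10 were epithelial by fixed marker lists. Cluster 9 was limbal-like, led by *Wfdc18*, and cluster 3 was basal-like, with *Itgb4* and *Col17a1* among its leading genes. Cluster 11 was S phase-like, led by *Mcm3* and *Mcm6*, and cluster 8 was mitotic-like, led by *Top2a* and *Mki67*. Clusters 1 and 4 were suprabasal-like, led by *Pygl* and *Dsg1a*, cluster 2 was led by *Ly6g6c* and *Spink5*, and cluster 5 was conjunctival-like with *Krt4* and *Krt19*. Clusters 6 and 7 were superficial-like, led by *Krt78* and *Lce3a*, and cluster 7 was counted as epithelial on its leading genes, since its score over the broad lists was near 0. Cluster 0 was stromal-like, led by *Kera*, whereas cluster 10, led by *Penk* and *Myoc*, was left unnamed. Its score was highest for the corneal endothelium list (2.07), ahead of the stromal list (2.02), and its summed stromal markers stood at 72344 CPM (counts per 1000000 UMIs) in UW against 74554 in cluster 0. Clusters 13 to 16 held immune-like cells and cluster 17 was left unnamed, and nearly all their cells came from W. The study itself used *Ccnd1* and *Cdkn1a* as markers of basal and suprabasal cells, and the clusters were made from the same counts, so levels are compared between clusters as a description only.

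RefSeq promoter entries, here the 250 bases before a transcription start (GRCm38.p6), were found for 6 of the 10 members. *Ccnd1*, *Ccnd2*, *Cdkn1c* and *Myc* had none. The 3 genes below are shown because *Cdk4* encodes the partner of all D cyclins, and because *Cdkn1a* and *Cdkn2b*, an inhibitor of each family, differed in opposite directions between the libraries. Capitals mark the motifs found on either strand, which were searched as letters only.
Cdk4: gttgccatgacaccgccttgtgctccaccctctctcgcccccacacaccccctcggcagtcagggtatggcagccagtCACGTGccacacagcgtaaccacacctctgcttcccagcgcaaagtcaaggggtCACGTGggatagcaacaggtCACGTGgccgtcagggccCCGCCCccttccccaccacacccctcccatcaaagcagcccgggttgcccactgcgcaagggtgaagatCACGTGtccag
Cdkn1a, upstream start: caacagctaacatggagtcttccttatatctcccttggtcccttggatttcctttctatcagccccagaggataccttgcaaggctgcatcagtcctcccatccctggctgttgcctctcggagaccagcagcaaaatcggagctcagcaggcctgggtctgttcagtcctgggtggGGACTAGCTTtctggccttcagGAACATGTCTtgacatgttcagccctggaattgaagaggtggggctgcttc
Cdkn1a, downstream start: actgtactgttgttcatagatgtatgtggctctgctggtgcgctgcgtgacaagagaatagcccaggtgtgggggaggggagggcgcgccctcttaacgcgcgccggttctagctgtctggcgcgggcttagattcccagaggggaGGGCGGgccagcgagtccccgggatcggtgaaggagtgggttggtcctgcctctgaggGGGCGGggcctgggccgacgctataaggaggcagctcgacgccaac
Cdkn2b: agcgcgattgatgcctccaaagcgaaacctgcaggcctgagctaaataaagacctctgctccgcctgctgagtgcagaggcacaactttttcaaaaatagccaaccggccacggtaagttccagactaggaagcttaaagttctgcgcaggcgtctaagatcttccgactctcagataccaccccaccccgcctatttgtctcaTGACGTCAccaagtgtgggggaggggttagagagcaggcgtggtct

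The *Cdk4* window (chr10:127063285-127063534, plus strand) held 4 copies of the E-box CACGTG, the sequence that Myc–Max dimers bind, and 1 GC box (GGGCGG). An E-box was present in 6.02% of the 32851 promoter windows of the same length, and 7 windows held 4 or more. The window of the upstream *Cdkn1a* start (chr17:29090729-29090978, plus strand) held 2 p53 half-sites, at 73 to 64 and 51 to 42 bases before the start, a motif present in 7.13% of windows. The downstream start (chr17:29093519-29093768, plus strand) held 2 GC boxes, present in 32.7% of windows. In the *Cdkn2b* window (chr4:89311033-89311282, minus strand) there was 1 cyclic AMP response element (TGACGTCA), present in 1.55% of windows. Motif matches describe the letters and were not tied to binding in these cells.

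Levels were summed per cluster and library and are given in CPM with exact Poisson 95% intervals. With 1 library per condition there was no test, and all intervals cover counting error only, not the spread between mice. Every member had at least 20 UMIs over both libraries of all 12 clusters, which gave 120 ratios of W over UW. Of these, 11 (9.17%) were at least 2-fold higher in W, where an average of 12.9% of all genes passed the same threshold per cluster. A larger share, 23 (19.2%), was at least 2-fold lower, against an average of 9.77% of all genes. This order of the counts held in CPM and turned as mean UMIs per cell, with no division by the cells' totals, where 22 ratios were higher and 16 lower. On that scale the median change of the 120 log2 ratios was 0.34. No share of all genes was computed on it, here or below, so a general shift with cell depth was not separated from the members. *Myc* made up 6 of the 11 higher ratios, and *Ccnd2*, *Cdkn1a*, *Cdkn1b* and *Cdkn1c* made up all 23 lower ones.

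**Figure D1:**
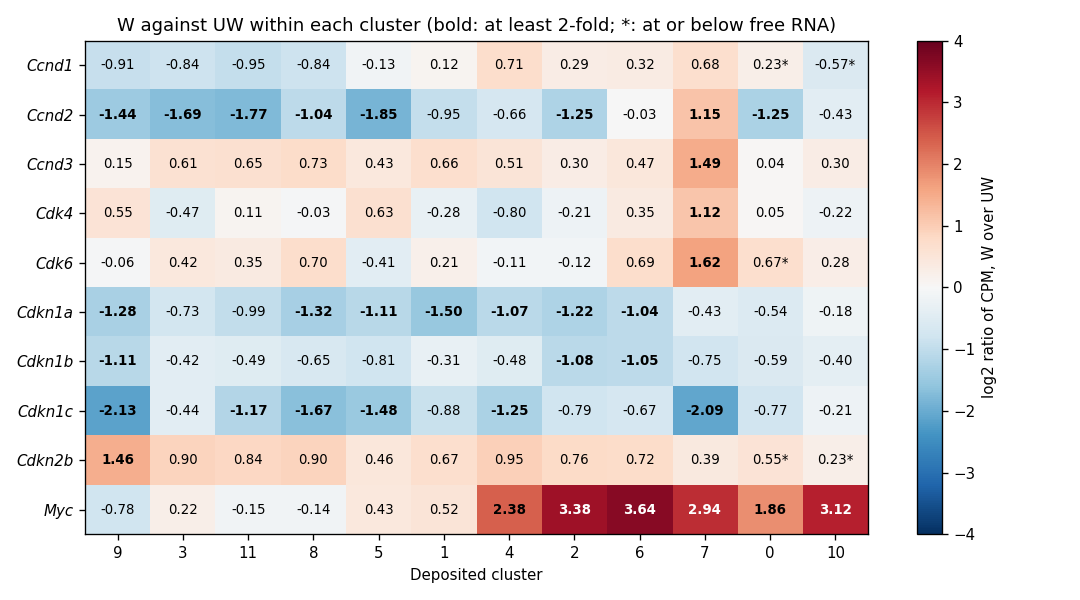
Log2 ratio of CPM, W over UW, for the 10 members (rows) in 12 deposited clusters (columns, epithelial clusters first, then 0 and 10), 1 library per condition. Bold values are at least 2-fold, and asterisks mark pairs at or below the level that free RNA would give in either library. *Myc* is the warmest row in clusters 4, 2, 6, 7, 0 and 10, and the *Cdkn1a*, *Cdkn1b* and *Cdkn1c* rows are below 0 in all 12 clusters, although in 2, 3 and 2 of them not as mean UMIs per cell.

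Some RNA in a droplet comes from other cells. Epithelial keratins in clusters 0 and 10 and stromal proteoglycans in the epithelial clusters gave the level that such free RNA would add for each member. *Ccnd1* and *Cdkn2b* in clusters 0 and 10, and *Cdk6* in cluster 0 of UW, were at or below that level, so their ratios there are not read as expression. Without these 5 pairs of a member and a cluster, the counts stayed at 11 higher and 23 lower.

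*Ccnd1*, which encodes cyclin D1, is on chromosome 7 (144929931 to 144939925, minus strand). In UW it was highest in S phase-like cluster 11, at 1090 CPM, and basal-like cluster 3, at 989 CPM (95% interval 978 to 999). Limbal-like cluster 9 followed with 844 CPM. It was 305 CPM in cluster 1, 53.4 CPM in cluster 6 and 15.02 CPM in cluster 7, where the free-RNA estimate was 12.8 CPM. The level therefore ranged 72.6-fold over the epithelium of UW, and 23.4-fold in W.

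After wounding, *Ccnd1* was lower in the 4 clusters where it had been highest. It stood at 553 CPM in cluster 3 of W (log2 ratio −0.84, 95% interval −0.87 to −0.81) and at 449 CPM in cluster 9 (−0.91, −0.95 to −0.87). The ratios in clusters 8 and 11 were −0.84 and −0.95. As mean UMIs per cell, with W cells of these clusters holding more UMIs, the ratio was −0.36 in cluster 3 and −0.08 in cluster 9. In suprabasal-like cluster 4 it was instead higher, at 186 against 114 CPM (0.71, 0.65 to 0.77). Clusters 2 and 6 had CPM ratios of 0.29 and 0.32, but −0.02 and 0.00 as mean UMIs per cell. No cluster reached 2-fold for *Ccnd1*. After cells were thinned to 5000 UMIs, a UMI of *Ccnd1* was found in 97.3% of UW and 84.7% of W cells of cluster 3. Without thinning the shares were 99.3% and 97.2%, at median depths of 18682 and 23906 UMIs, and in stromal-like cluster 0, where the level did not exceed free RNA, they were 17.1% and 25.9%.

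*Ccnd2*, encoding cyclin D2 (chromosome 6, 127125162 to 127152193, minus strand), was led in UW by limbal-like cluster 9 with 683 CPM, ahead of cluster 11 with 472 CPM and cluster 3 with 331 CPM. Unlike *Ccnd1*, it was well above free RNA in clusters 0 and 10 too, at 136 CPM in cluster 0 and 147 CPM in cluster 10, whose intervals overlapped. These clusters held 10.8% of its UMIs in UW. In W, 11 of 12 clusters were lower, and 7 of them at least 2-fold. The lowest ratios were in cluster 5 (161 to 44.8 CPM, −1.85, −1.93 to −1.77), cluster 11 (472 to 138 CPM, −1.77) and cluster 3 (331 to 103 CPM, −1.69). Cluster 9 had 252 CPM in W (−1.44), the highest of the epithelial clusters in both libraries. In those 4 clusters, 7.47%, 9.33%, 11.1% and 9.76% of all genes were at least 2-fold lower, and in clusters 0, 2 and 8, where *Ccnd2* was also called, 9.67%, 13.1% and 9.58%. As mean UMIs per cell, 4 clusters rather than 7 were at least 2-fold lower, and clusters 0, 8 and 9 were at −0.60, −0.43 and −0.61. In clusters 5, 11 and 3 the summed basal markers were higher in W (3.57, 2.02 and 2.40, with 5, 3 and 6 of 6 higher). Limbal sums were higher there too (2.85, 4.11 and 4.71). Superficial sums were lower (−1.37, −2.10 and −1.85), with 3, 0 and 3 of 7 higher. Their part in the *Ccnd2* levels was not tested. For *Ccnd2*, cluster 7 was the exception, with 9.37 CPM in UW and 20.8 CPM in W (1.15, 0.91 to 1.39).

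That superficial-like cluster held 5 of the 11 ratios called higher. *Ccnd2*, *Ccnd3*, *Cdk4*, *Cdk6* and *Myc* all passed 2-fold there, but so did 23.2% of all genes, and the median gene was higher by 0.26. With TMM or median-of-ratios factors, which take out such a shift, *Ccnd2* and *Cdk4* no longer passed 2-fold in this cluster. *Cdk4* in cluster 7 was 8.04 CPM in W, 1.19 times the free-RNA estimate, and 3.69 CPM in UW, 1.44 times it. The part of free RNA in these low levels was not tested.

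*Ccnd3*, encoding cyclin D3 (chromosome 17, 47505051 to 47599691, plus strand), had another distribution, highest in cluster 10 (62.0 CPM in UW) and cluster 0 (42.3 CPM). Among epithelial clusters of UW it led in cluster 9 with 31.0 CPM and was lowest in cluster 7 with 1.76 CPM. All 12 ratios were above 0, from 0.04 in cluster 0 to 1.49 in cluster 7, and only cluster 7 passed 2-fold. As mean UMIs per cell, 11 were above 0 and 4 passed 2-fold. The intervals of clusters 0 and 9 included 0. In basal-like cluster 3, *Ccnd3* had 16.6 CPM in UW and 25.3 CPM in W (0.61, 0.43 to 0.78), above 0 where *Ccnd1* and *Ccnd2* were below it, and clusters 8 and 11 had the same split.

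*Cdk4* (chromosome 10, 127063534 to 127067920, plus strand) encodes the kinase that the D cyclins share with CDK6. It was highest in UW in cluster 8, at 179 CPM, with 155 CPM in cluster 11 and 125 CPM in cluster 9. Over the epithelium it ranged 48.4-fold, with 3.69 CPM in cluster 7. In W, 6 ratios were above 0 and 6 below (9 and 3 as mean UMIs per cell). Limbal-like cluster 9 had 183 CPM in W (0.55, 0.45 to 0.65, and 1.38 as mean UMIs per cell). Basal-like cluster 3 instead went from 108 to 77.5 CPM (−0.47, −0.56 to −0.39, and near 0 as mean UMIs per cell). Cluster 4 went from 39.6 to 22.8 CPM (−0.80, −0.94 to −0.65). In cluster 8 the libraries did not differ beyond counting error (−0.03, −0.10 to 0.04).

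*Cdk6* (chromosome 5, 3341485 to 3531008, plus strand) was spread more evenly over the epithelium, from 54.8 CPM in cluster 11 of UW to 35.8 CPM in cluster 8 and 24.2 CPM in cluster 2. It was 7.24 CPM in cluster 6 and 1.93 CPM in cluster 7. Of the 11 pairs of neighbouring clusters in its UW order, 8 had overlapping intervals. Mitotic-like cluster 8 had more *Cdk6* in W (58.0 CPM, 0.70, 0.55 to 0.84), and conjunctival-like cluster 5 less (50.7 to 38.2 CPM, −0.41, −0.52 to −0.30). As mean UMIs per cell these ratios were 1.31 and −0.11. On that scale clusters 0, 7, 8 and 11 passed 2-fold, of which cluster 0 was at or below free RNA in UW. Genes annotated on the other strand lie at *Ccnd2*, *Ccnd3*, *Cdk4* and *Cdk6*, *Bysl* for *Ccnd3* and *Tspan31* for *Cdk4* among them. The paper counted with Cell Ranger 3.1.0 without stating the use of strand, and whether such reads entered the counts was not tested.

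**Figure D2:**
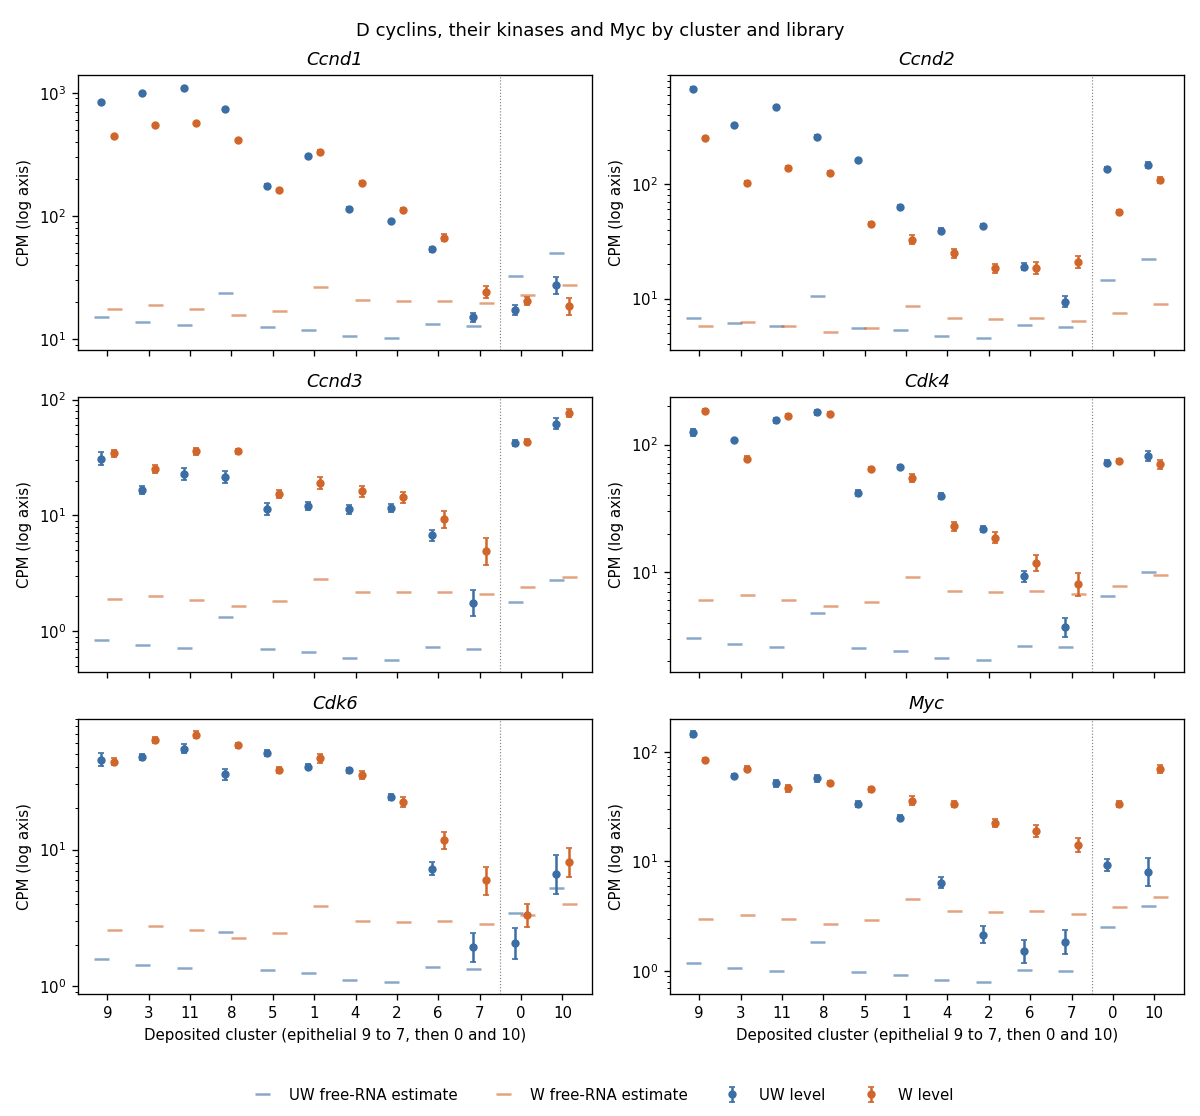
Levels of the D cyclins, their kinases and *Myc* in CPM (log axes) by deposited cluster, for UW (blue) and W (orange), 1 library each. Points carry exact Poisson 95% intervals, horizontal dashes give the free-RNA estimate, and clusters 0 and 10 are right of the dotted line. *Ccnd1* runs from 1090 CPM in cluster 11 to 15.02 CPM in cluster 7 of UW, and *Myc* shows the widest gap between libraries on the right of the epithelial order.

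*Cdkn1a* (chromosome 17, 29090976 to 29100727, plus strand) encodes p21, a p53 target that is also known from terminal differentiation. It was highest in cluster 2 (1082 CPM), cluster 4 (968 CPM) and cluster 1 (827 CPM), with 460 CPM in cluster 3 and 203 CPM in cluster 9. In CPM all 12 clusters had less of it in W, 7 of the 10 epithelial ones at least 2-fold less, and as mean UMIs per cell 10 of 12 had less. The lowest ratio was in cluster 1, from 827 to 292 CPM (−1.50, −1.55 to −1.46), where 11% of all genes were at least 2-fold lower. Mitotic-like cluster 8 went from 524 to 210 CPM (−1.32), cluster 9 to 83.3 CPM (−1.28) and cluster 2 to 463 CPM (−1.22). The log2 ratios in clusters 4, 5 and 6 were −1.07, −1.11 and −1.04, with a background of 13.5% in cluster 4 and 9.58% in cluster 6. The smallest difference was in cluster 10 (130 to 115 CPM, −0.18, −0.32 to −0.04), where 6.63% of all genes were at least 2-fold lower and no member was, and where the UW level was 1.07 times the free-RNA estimate. In cluster 9, thinned cells with a UMI made up 50.1% in UW and 27.7% in W.

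The size of this difference depended on the scaling. As mean UMIs per cell, 4 clusters rather than 7 were at least 2-fold lower, and 2 of 12 were higher in W. Clusters 5, 8 and 9 no longer passed 2-fold, at −0.81, −0.71 and −0.45. Cell type markers differed too. In cluster 1 the summed basal and limbal markers were higher in W (4.57 and 6.16), with *Krt14* as 94.1% of the basal sum. Its superficial sum was lower (−1.67), although 2 of 7 markers were higher. Their part in the *Cdkn1a* levels was not tested.

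*Cdkn1b*, encoding p27 (chromosome 6, 134920401 to 134925513, plus strand), is known to accumulate in resting cells. It was the most even member over the epithelium, with a 2.72-fold range in UW from 54.3 CPM in cluster 5 to 148 CPM in cluster 2. It too had lower CPM in all 12 clusters of W (in 9 of 12 as mean UMIs per cell), at least 2-fold in cluster 9 (85.5 to 39.5 CPM, −1.11, −1.26 to −0.97), cluster 2 (148 to 69.9 CPM, −1.08) and cluster 6 (143 to 69.2 CPM, −1.05). The other 9 ratios lay between −0.81 and −0.31. Clusters 2 and 6 passed 2-fold as mean UMIs per cell too, and cluster 9 did not (−0.28).

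*Cdkn1c* (chromosome 7, 143458339 to 143461050, minus strand) encodes p57, which is imprinted and in mice is expressed from the maternal copy. Clusters 0 and 10 held 64.9% of its UMIs in UW, with 107 CPM in cluster 0 and 236 CPM in cluster 10, against 7.10 CPM in the epithelial sum. The one epithelial cluster that stood out in UW was limbal-like cluster 9 with 27.4 CPM (23.8 to 31.4), and cluster 8 followed with 11.3 CPM. Cluster 9 had 6.27 CPM (5.32 to 7.33) in W (log2 ratio −2.13, −2.44 to −1.82). Before wounding 27.1% of its cells held a UMI, and afterwards 13.5%, although W cells of this cluster were deeper, with a median of 24009 against 13944 UMIs. Clusters 4, 5, 7, 8 and 11 were also at least 2-fold lower, from −2.09 to −1.17, in cluster 7 beside 6.48% of all genes. The W levels of these clusters were 1.84 to 3.57 CPM, with 1.20 CPM as the free-RNA estimate in cluster 7. Cluster 11 was at −0.43 as mean UMIs per cell and no longer passed 2-fold, while cluster 2 did (−1.10). The ratios in clusters 0 and 10 were nearer 0, with −0.77 in cluster 0 and −0.21 in cluster 10.

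*Cdkn2b* (chromosome 4, 89306299 to 89311039, minus strand) encodes p15, a known target of TGF-beta signalling. Its level in UW was 117 CPM in cluster 2, 116 CPM in cluster 5 and 111 CPM in cluster 4, with overlapping intervals between neighbours in this order, and it was 35.7 CPM in cluster 3 and 6.70 CPM in cluster 9. In all 10 epithelial clusters its CPM was higher in W, opposite to the Cip/Kip members, and with median-of-ratios factors cluster 7 alone was at −0.02. Cluster 4 went from 111 to 216 CPM (0.95, 0.90 to 1.01), cluster 2 to 198 CPM (0.76, 0.71 to 0.81) and cluster 3 to 66.8 CPM (0.90, 0.79 to 1.01). Only limbal-like cluster 9 passed 2-fold, from 51 UMIs (6.70 CPM) to 459 UMIs (18.4 CPM; 1.46, 1.04 to 1.91), and 9.12% of all genes were at least 2-fold higher there. Its UW level was 1.46 times the free-RNA estimate and its W level 2.93 times. After thinning and as mean UMIs per cell, all 10 epithelial clusters were above 0, and as mean UMIs per cell clusters 3, 8 and 11 passed 2-fold beside cluster 9, with ratios from 1.38 to 2.29.

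**Figure D3:**
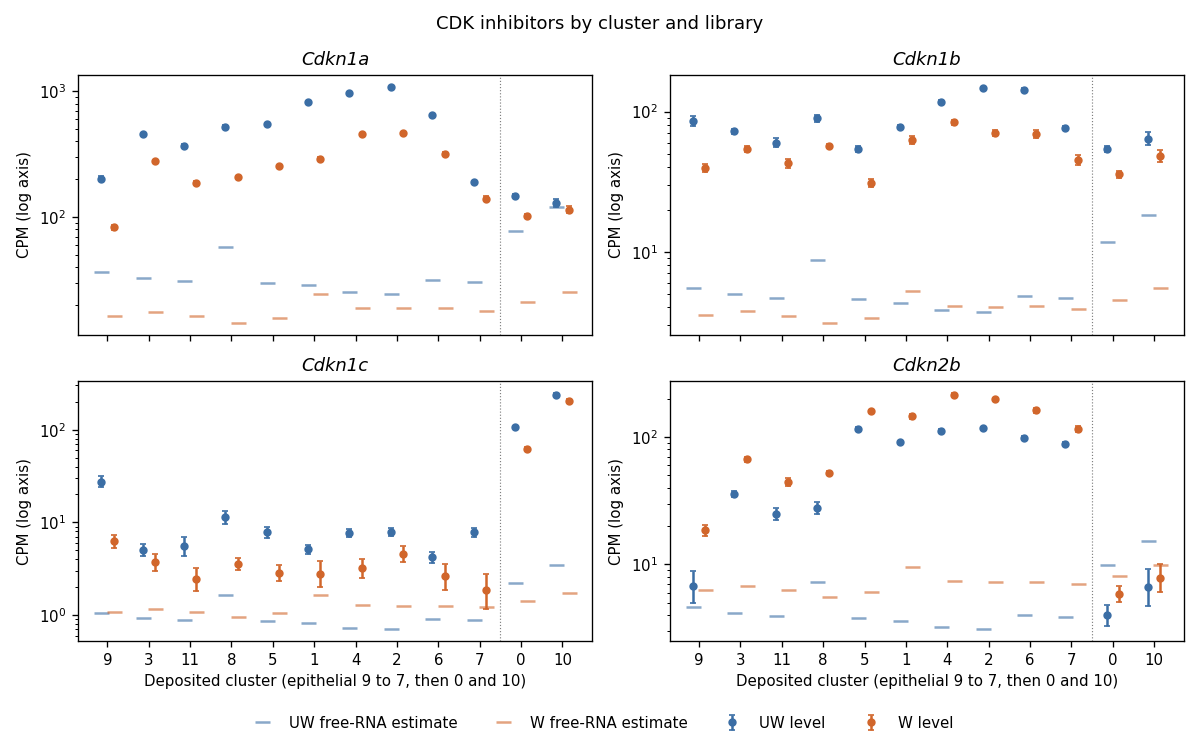
Levels of the 4 CDK inhibitors in CPM (log axes) by deposited cluster, for UW (blue) and W (orange), 1 library each, with exact Poisson 95% intervals and free-RNA estimates as dashes. In CPM the W points of *Cdkn1a*, *Cdkn1b* and *Cdkn1c* lie below those of UW and the W points of *Cdkn2b* above them (other scalings turn up to 3 of 12 clusters), and *Cdkn1c* is highest in clusters 0 and 10.

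*Myc* (chromosome 15, 61985391 to 61990374, plus strand) had the steepest epithelial distribution of all members in UW, 95.4-fold from 145 CPM in limbal-like cluster 9 to 1.52 CPM in cluster 6. Basal-like cluster 3 had 60.0 CPM, cluster 1 had 25.0 CPM, and cluster 4 had 6.39 CPM. The 2.14, 1.52 and 1.85 CPM of clusters 2, 6 and 7 were only 2.70, 1.48 and 1.86 times the free-RNA estimate. In W the range was 5.94-fold.

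*Myc* was at least 2-fold higher in W in upper epithelial clusters 4, 2, 6 and 7. Cluster 4 had 33.4 CPM in W (2.38, 2.18 to 2.59), cluster 2 had 22.3 CPM (3.38, 3.1 to 3.67), cluster 6 had 18.9 CPM (3.64, 3.25 to 4.05) and cluster 7 had 14.1 CPM (2.94, 2.52 to 3.37). Of all genes, 13.8%, 13.2%, 17.2% and 23.2% were at least 2-fold higher in these clusters. Their W levels were 4.25 to 9.49 times the free-RNA estimate. In cluster 6, 66 UMIs in 1533 UW cells compared with 282 UMIs in 652 W cells. A UMI was found in 4.11% of the former and 24.7% of the latter, or in 0.800% and 8.80% after thinning.

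In the clusters where *Myc* was abundant in UW, the ratios were near 0 or below it. Cluster 3 had 70.0 CPM in W (0.22, 0.13 to 0.32), clusters 8 and 11 had −0.14 and −0.15, and limbal-like cluster 9 had 84.1 CPM (−0.78, −0.89 to −0.68). Suprabasal-like cluster 1 and conjunctival-like cluster 5 were higher but below 2-fold, at 0.52 and 0.43. Clusters 0 and 10 were higher in W as well. Cluster 0 went from 9.25 to 33.6 CPM (1.86, 1.67 to 2.06) and cluster 10 from 8.06 to 69.8 CPM (3.12, 2.68 to 3.58), where 7.34% and 4.97% of all genes were at least 2-fold higher. As mean UMIs per cell, cluster 9 was no longer lower and all 12 ratios were above 0, whereas the 6 called clusters stayed above 2-fold.

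Other measures also differed in these clusters. The 6 basal markers summed to 365 CPM in UW and 15265 CPM in W of cluster 4, with 5 of 6 higher, and to 151 and 1313 CPM in cluster 7, again with 5 of 6 higher. Basal markers in clusters 2 and 6 were 8594 and 3581 CPM in W, against 299 and 295 CPM in UW, and none of the 6 was at 0 in any of these groups. *Krt14* alone made up 90.5% to 95.8% of these sums in W, with 57.3 CPM in UW and 14624 CPM in W of cluster 4. All 4 limbal markers were at least 2-fold higher in clusters 2, 4, 6 and 7 (log2 ratio of their sum 4.55 to 5.71). The sum of 7 superficial markers was lower there (−1.32 to −0.91), although 1 to 3 of the 7 were higher. The sum of 5 suprabasal markers had ratios of 1.72 to 2.99 in these clusters, with 2 of 5 higher in each. Of the limbal markers, *Ifitm3* was the most abundant there over both libraries, with 312 CPM in cluster 4 against 27.7 CPM of *Gpha2*. Both were higher in stromal-like cluster 0 (3419 and 2625 CPM) than in limbal-like cluster 9 (1926 and 1537 CPM). They therefore do not mark limbal cells alone. In clusters 0 and 10 the 5 stromal markers, all lower in W, had ratios of −0.95 and −0.61 in sum. The 4 limbal markers, all at least 2-fold higher, had 2.45 and 2.23, and the basal markers 1.12 and 1.35, with 4 of 6 higher. Of 5 neutrophil markers, 4 or 5 were higher in each of these 6 clusters, with ratios of the sum from 2.55 in cluster 7 (155 to 907 CPM) to 9.02 in cluster 2 (2.03 to 1050 CPM). Nearly all of it was *S100a8* and *S100a9*, whereas the defining markers *Csf3r*, *Cxcr2* and *Retnlg* were each under 1 CPM in both libraries. Of 6 monocyte and macrophage markers, 5 or 6 were higher in each, with ratios of the sum from −0.64 in cluster 7 to 1.13 in cluster 10. Of 5 T cell markers, 3 to 5 were higher, at sums of 1.44 to 5.56 CPM in W. The sum of 10 immediate early genes, which respond to stress and dissociation, was lower in clusters 0 (−1.39) and 10 (−0.43), and differed by −0.28 to 0.13 in clusters 2, 4, 6 and 7. Their part in the *Myc* levels was not tested.

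A UMI of any of 10 S, G2 and M phase genes was found in 38.2% of UW and 80.5% of W epithelial cells, and in 28.4% and 63.8% of stromal-like cluster 0. Superficial-like cluster 7 had 22.3% and 56.8%, and neutrophil-like cluster 13 of W, shallow as it was, 40.1%. After thinning to 5000 UMIs the shares were 16.4% and 50.1% of epithelial cells, 6.30% and 22.6% in cluster 7, and 34.0% in monocyte- and macrophage-like cluster 14 of W. The part of free RNA in these UMIs was not tested, and the shares are not read as shares of dividing cells. The levels were therefore recomputed from cells with none of them, 10437 UW and 2550 W cells, in the 10 clusters that kept at least 50 such cells per library. *Ccnd1* remained lower in cluster 3 (−0.94) and cluster 9 (−1.13), and *Ccnd2* in the same clusters (−2.01 and −1.54). Among the inhibitors, *Cdkn1a* stayed at least 2-fold lower in clusters 1 (−1.23), 2 (−1.15), 6 (−1.03) and 9 (−1.67), was at −0.87 and −0.85 in clusters 4 and 5, and went from −0.73 to −0.17 in cluster 3. *Cdkn1b* in cluster 9 went from −1.11 to −0.43. The ratio of *Cdkn1c* turned from −0.44 to 0.88 in cluster 3 and went from −2.13 to −3.80 in cluster 9, with 116 and 70 W cells left in these clusters. Over all W cells of clusters 3 and 9, *Cdkn1c* had 0.09 and 0.16 UMIs per cell, so both ratios rest on few UMIs. *Cdkn2b* went from 1.46 to 0.88 in cluster 9, below 2-fold, whereas clusters 3 and 4 then passed it (1.5 and 1.04). *Myc* stayed at 3.76 in cluster 6, 3.38 in cluster 2 and 3.31 in cluster 10, while its ratio in cluster 9 went from −0.78 to −0.19.

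Over the 10 epithelial clusters together, the ratios mixed levels with cluster sizes. Mitotic-like cluster 8 held 3.84% of epithelial UMIs in UW and 20.4% in W, and limbal-like cluster 9 held 2.29% and 10.4%. The epithelial sum was higher in W for *Cdk4* (51.7 to 94.0 CPM, 0.86), *Ccnd3* (1.00) and *Myc* (22.0 to 46.0 CPM, 1.07), and lower for *Cdkn1a* (697 to 264 CPM, −1.40), *Cdkn1c* (−1.01) and *Cdkn1b* (−0.91). In this sum 21.8% of all genes were at least 2-fold higher and 8.77% lower. When each W cluster was weighted by its UW share of UMIs, *Cdk4* went from 0.86 to −0.10, *Ccnd1* from 0.07 to −0.37, and *Ccnd2* from −0.41 to −1.33. *Ccnd3* went to 0.54 and *Myc* to 0.66, both under 2-fold, *Cdkn2b* from 0.32 to 0.72, and *Cdkn1a* from −1.40 to −1.14.

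**Figure D4:**
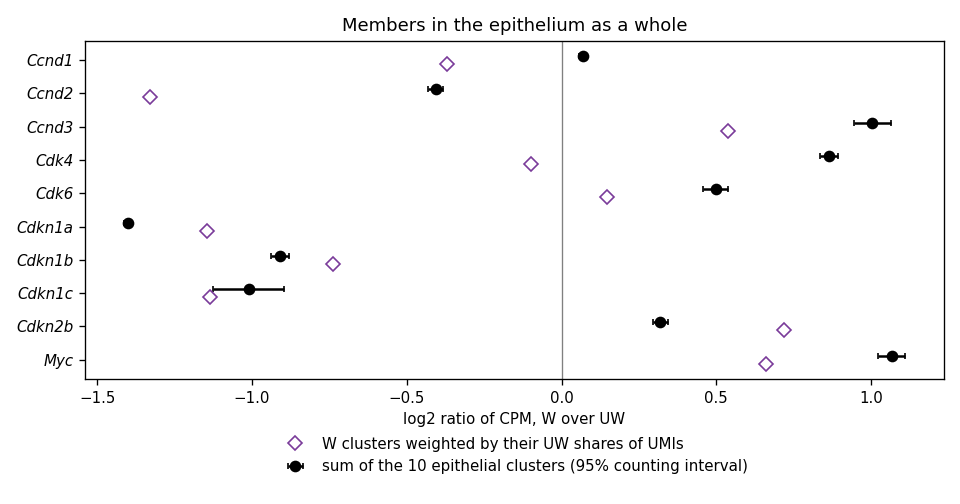
Log2 ratio of CPM, W over UW, for each member in the sum of the 10 epithelial clusters (black, with 95% counting intervals) and with W clusters weighted by the share of UMIs they had in UW (open diamonds). *Cdk4* moves from 0.86 to −0.10 and *Ccnd2* from −0.41 to −1.33, while *Cdkn1a*, *Cdkn1b* and *Cdkn1c* are below 0 both ways in CPM.

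Further genes of the pathway were counted in the epithelial sum by fixed lists. Of 23 other G1/S genes, 10 were at least 2-fold higher and 1 lower, beside 21.8% and 8.77% of all genes, with a median of 0.91 against 0.22 for all genes. The highest were *E2f8* (1.84 to 10.7 CPM, 2.54), an E2F family repressor, and the S phase cyclin *Ccna2* (5.46 to 29.7 CPM, 2.44). Lowest were *Rb1*, which encodes the retinoblastoma protein (26.6 to 10.97 CPM, −1.28), and its relative *Rbl2* (−0.54). Within the basal-like cluster 3, 8 of 22 were higher and 4 lower, where 15.1% of all genes were higher and 11.1% lower, and within mitotic-like cluster 8 none of 23 was higher and 3 were lower, beside 10.9% of all genes higher and 9.58% lower.

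Of 15 other p53 targets, 5 were at least 2-fold higher and none lower, beside 21.8% and 8.77% of all genes, with a median of 0.15 against 0.22. The lowest ratios were those of *Perp* (2603 to 1731 CPM, −0.59) and *Trp53inp1* (−0.48). *Bax*, which promotes apoptosis, had 20.7 CPM in UW and 70.9 CPM in W (1.78), and *Eda2r* was highest in ratio (3.40) at under 1 CPM.

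Among 10 genes listed as Myc partners and related factors, 2 were higher and none lower, near the 21.8% and 8.77% of all genes, with a median of −0.20. *Mxd4*, of the Mxd family that competes with Myc, was lowest (39.5 to 21.1 CPM, −0.90), followed by *Mycl* (−0.78). *Mxd3* was highest (0.634 to 5.05 CPM, 2.99), ahead of *Mycn* (1.39), which was nearly absent. Of 18 Myc targets of ribosome production and metabolism, 11 were higher and none lower, beside the same shares of all genes, with a median of 1.13. *Cad*, of pyrimidine synthesis, had the largest ratio (1.65 to 9.91 CPM, 2.59), then the nucleolar *Npm1* (173 to 737 CPM, 2.09), and *Odc1* and *Nop58* the smallest (−0.27 and 0.36). Cluster by cluster, 8 of 17 targets were higher in cluster 6, beside 17.2% of all genes, and 11 of 16 in cluster 7, beside 23.2%. In clusters 2 and 4 it was 2 of 18 each (13.2% and 13.8% of all genes), and in clusters 0 and 10 it was 1 of 18 each (7.34% and 4.97%). Clusters 8, 9 and 11, with less *Myc* CPM in W, had 6, 2 and 2 of 18 (10.9%, 9.12% and 12.7%). Clusters 1, 3 and 5 had 4, 2 and 3 of 18 (14.7%, 15.1% and 12.7%). Ratios of the summed targets were 0.54, 0.52 and 0.49 in clusters 8, 9 and 11. In the 6 clusters where *Myc* was called higher they lay between −0.11 and 0.44. Their relation to *Myc* was not tested, and the epithelial sum also mixes in cluster sizes.

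The genes most like each member were sought over 28 groups of cluster and library, by Pearson r of log2(CPM + 1) among 11716 genes. The groups share 2 libraries and their free RNA, so these values describe the table only. *Ccnd1* was most like *Trp63* (r = 0.95), which encodes the basal keratinocyte factor p63, *Shtn1* and *Lama3*. *Ccnd2* was most like *Fam35a* (0.90), *Dmac2* and *Slc7a5*, and *Ccnd3* like *Ubac2* (0.95), *Tnrc6a* and *Toe1*. *Cdk4* had the closest match, *Trim28* (0.99), with *Trmt6* and *Hspd1*, and *Cdk6* was most like *Llph* (0.91), *Mapkapk3* and *Cotl1*. Of the inhibitors, *Cdkn1a* was nearest to *Tet3* (0.93) and *Fam122b*, *Cdkn1c* to *Cldn10* (0.97), *Ncam1* and *Hey1*, and *Cdkn2b* to the claudin gene *Cldn7* (0.96), *Ttc22* and *Bspry*. *Cdkn1b* had no match above 0.81, with *Nub1*, *Tesc* and *Dgke* first. *Myc* was nearest to the ribosomal protein gene *Rpl36* (0.89) and to *Rpl36a-ps1* and *Rps12-ps3*, whose reads may be shared with parent genes. Between members, the closest pairs were *Ccnd2* with *Cdk4* (0.82) and *Ccnd1* with *Cdk6* (0.81), and *Cdkn1c* with *Cdkn2b* ran most against each other (−0.79).

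The immune-like clusters held at most 7 UW cells each, so only W levels are given. T cell-like cluster 16 had the highest level of any cluster in W for *Ccnd2* (273 CPM), *Ccnd3* (95.3 CPM), *Cdk6* (81.8 CPM) and *Cdkn1b* (189 CPM), although for *Ccnd2* the interval overlapped that of limbal-like cluster 9, for *Ccnd3* that of cluster 10 and for *Cdk6* that of cluster 11. Cyclin D2, cyclin D3 and CDK6 are known to be expressed in lymphocytes. *Cdk4* was also above the free-RNA estimate in cluster 16, at 67.4 CPM against 22.5 CPM. *Cdkn1a* was 351 and 345 CPM in the monocyte- and macrophage-like clusters 14 and 15, where the free-RNA estimates were 141 and 33.4 CPM. In cluster 13, which was neutrophil-like and shallow with a median of 2510 UMIs, *Ccnd1*, *Cdk4*, *Cdkn2b* and *Myc* did not exceed the free-RNA estimate, and *Cdkn2b* exceeded it in none of clusters 13 to 16.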

How the data were processed

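Corneal cells of 2 pooled samples were sequenced on the 10x Genomics platform. For alignment and counting the authors used an mm10 reference and Cell Ranger 3.1.0. They filtered cells on genes and mitochondrial share, removed called doublets and cells with a dissociation signature, and deposited the counts without normalization, with a table of cells and their clusters. The labels list another build, mm9, and another kit version than the paper. UW held 367166822 UMIs and W 289586482, and 52 cell barcodes occurred in both libraries.

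Counts were read in Python 3.11.15 (pandas 2.3.3, numpy 2.4.6, scipy 1.17.1) and summed per deposited cluster and library. Clusters with 50 cells in each library and genes with 20 UMIs over both were compared. Ratios have exact conditional 95% intervals, and shares exact Clopper-Pearson intervals. The free-RNA estimate is the library's level of a member times the largest of 3 ratios, each the level of a gene in a cluster that should lack it over its level in the whole library (*Krt12*, *Krt5* and *Krt14*, or *Kera*, *Lum* and *Dcn*). Calls were at least 2-fold and no statistical test was made. The ratio was tested on simulated counts. Alternatives used TMM (edgeR 4.0.16), median-of-ratios factors (DESeq2 1.42.0), mean UMIs per cell, cells weighted equally, thinning, stricter filters and leaving out cells with a cycling UMI. Cells with a first doublet call remained in the deposited table and in the main results. Without them the compared clusters kept 16130 of 16435 UW cells and 10696 of 10858 W cells. Doublet calls of the deposited table were used in this alternative only.

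The members and gene lists were chosen with earlier results of these data known. Named were all members, the 3 genes most like each (at least 10 CPM in a group; 1 of them is not reported here), the 2 largest and 2 smallest ratios of each list, and leading genes of clusters. Gene positions are those of GENCODE M21 (GRCm38).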

Additional observations from a re-analysis of the deposited data

Results flagged for a closer look

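In 5 members the ratio of W over UW was above 0 in one cluster and below 0 in another, with neither counting interval reaching 0. These differences between clusters were not tested, because each condition had 1 library. The highest and lowest log2 ratios were 3.64 in cluster 6 and −0.78 in cluster 9 for *Myc*, and 1.15 in cluster 7 and −1.85 in cluster 5 for *Ccnd2*. For *Ccnd1* they were 0.71 in cluster 4 and −0.95 in cluster 11. *Cdk4* had 1.12 in cluster 7 and −0.80 in cluster 4, and *Cdk6* had 1.62 in cluster 7 and −0.41 in cluster 5. As mean UMIs per cell, *Myc* in cluster 9 was at 0.05 and all 12 of its ratios were above 0. In cluster 7 the median ratio of all genes was 0.26.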

How the results depend on the processing

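No paired analysis was possible because each condition had 1 library. Of 120 ratios, 11 were at least 2-fold higher in W and 23 lower. The count of higher ratios was 22 as mean UMIs per cell, and between 10 and 15 under the other alternatives. The lower count was 16 as mean UMIs per cell, and 18 to 25 otherwise. Each alternative was run on all 120 ratios except for leaving out cells with a cycling UMI (100 ratios) and pairs at or below free RNA (115 ratios, chosen after seeing the data, as was the weighting by UW shares). No ratio past 2-fold changed sign under TMM, median-of-ratios factors, mean UMIs per cell, equal weights of cells, thinning, the stricter cell filter, the removal of doublet calls or of cells with a cycling UMI. Ratios nearer 0 did, 17 of them as mean UMIs per cell, a scaling under which the median change of the 120 ratios was 0.34. After thinning to 5000 UMIs the share of epithelial cells with a UMI of *Myc* was 10.4% in UW and 19.0% in W, against 27.0% and 53.3%. Counting intervals do not cover the spread between mice, and the part of free RNA in the cycling UMIs was not tested.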
